A study of Mus musculus with 6 samples.

Results

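Cholesterol synthesis and its control were followed through 8 genes in LβT2 cells, an immortalized line of mouse pituitary gonadotropes, kept fresh or stored in RNA-Best. The genes were taken by symbol: the enzymes Hmgcs1, Idi1, Fdft1, Sqle and Lss, the sensor protein Insig1 and the transcription factors Srebf1 and Srebf2. They are 8 of the 47069 genes in the count table, and all 8 passed the filter on low counts that left 14736 genes for testing. All cells were at passage 14, were treated with 2 nM of gonadotropin-releasing hormone (GnRH) over 40 min, and were then trypsinized and pelleted, so no untreated cells enter any comparison. In 3 libraries the pelleted cells were lysed at once in guanidium thiocyanate buffer (fresh). In the other 3 they were resuspended in RNA-Best, a proprietary reagent, held at 4°C for a storage time given as at least 4 days, and lysed in the same buffer (RNA-Best). The sources used here leave out whether replicate libraries stem from separate cultures, and the p-values therefore measure the spread between these libraries, which may be technical. The fresh libraries held 14477304 to 47438746 counts and the RNA-Best libraries 4909418 to 11999363, so every value is less finely counted after storage.

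Cholesterol is built from acetyl-CoA through mevalonate, isoprenoid units, squalene and lanosterol. The genes of the pathway are switched on by SREBP-2, the product of Srebf2, while SREBP-1, the product of Srebf1, mainly drives fatty acid synthesis. Both factors are made as precursors in the membrane of the endoplasmic reticulum. When sterols are low, SCAP escorts them to the Golgi apparatus, where the proteases S1P and S2P free the active part, and when sterols are high, INSIG proteins hold SCAP back. SREBPs bind sterol regulatory elements in promoters, often beside sites for NF-Y (CCAAT) and Sp1 (GC box). Most animal cells, pituitary cells included, draw on this pathway for their membranes, and Insig1 is itself a target of SREBPs.

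The promoters were read from RefSeq windows on GRCm38.p6, which matched 6 of the 8 genes and gave 8 windows, since Srebf1 has several starts. Sqle and Fdft1 are named only. The windows hold 300 bases, most of them upstream of the start. They were searched on both strands for TCACCCCA, the core of a sterol regulatory element, for CCAAT and for GGGCGG, letters chosen after the windows had been seen. No 2 matches overlap in the stretches printed. TCACCCCA occurs in 1.56% of the 32851 windows of all genes, CCAAT in 37.4% and GGGCGG in 35.7%. It was found in the windows of Hmgcs1, 137 bases before the start, and of Srebf2, 162 bases before it, and not in these letters in those of Idi1, Lss, Insig1 or Srebf1. The 200 bases before the start are printed for these 2 genes and for Lss. In the main test Hmgcs1 rose after storage, Srebf2 did not pass the threshold, and Lss rose without holding the letters of the core. All 3 genes lie on the plus strand, and the capitals mark the motifs on either strand, so that ATTGG is CCAAT and CCGCCC is GGGCGG read on the other strand.
Hmgcs1 (chr13:119690151-119690350): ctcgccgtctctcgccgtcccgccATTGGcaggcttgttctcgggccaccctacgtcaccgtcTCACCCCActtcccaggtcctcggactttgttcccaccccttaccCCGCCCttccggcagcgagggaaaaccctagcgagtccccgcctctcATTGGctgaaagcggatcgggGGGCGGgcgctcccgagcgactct
Srebf2 (chr15:82147069-82147268): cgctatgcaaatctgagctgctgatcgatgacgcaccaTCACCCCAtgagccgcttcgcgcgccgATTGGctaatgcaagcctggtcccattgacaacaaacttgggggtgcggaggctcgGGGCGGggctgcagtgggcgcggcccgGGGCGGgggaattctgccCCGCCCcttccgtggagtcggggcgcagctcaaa
Lss (chr10:76531405-76531604): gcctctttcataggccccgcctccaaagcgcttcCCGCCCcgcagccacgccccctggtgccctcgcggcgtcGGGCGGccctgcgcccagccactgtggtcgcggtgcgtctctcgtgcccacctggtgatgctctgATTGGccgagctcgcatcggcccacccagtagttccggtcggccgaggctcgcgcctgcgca
The Hmgcs1 stretch holds the core between matches to CCAAT and the GC box, and the Srebf2 stretch holds the core upstream of a match to CCAAT and a row of GC boxes. A match is a description of the letters and was not tested as a binding site.

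The 8 genes were expressed in every library of fresh and stored cells, and 4 of them passed the test. Hmgcs1 and Lss rose in RNA-Best by 14.4% and 13.2%, Fdft1 fell by 12.6%, and Srebf1 fell by 12.4%. Sqle, Idi1, Insig1 and Srebf2 did not pass the threshold, a false discovery rate of 5% in edgeR's quasi-likelihood test with Benjamini-Hochberg adjustment over all genes tested. These are 4 calls among 8 genes, with 2 in each direction, and 50.8% of all tested genes were called, 26.0% higher and 24.8% lower, so the share is near that of the background. In bulk libraries a change in the RNA of each cell and a change in which cells were recovered cannot be told apart.

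**Figure D1:**
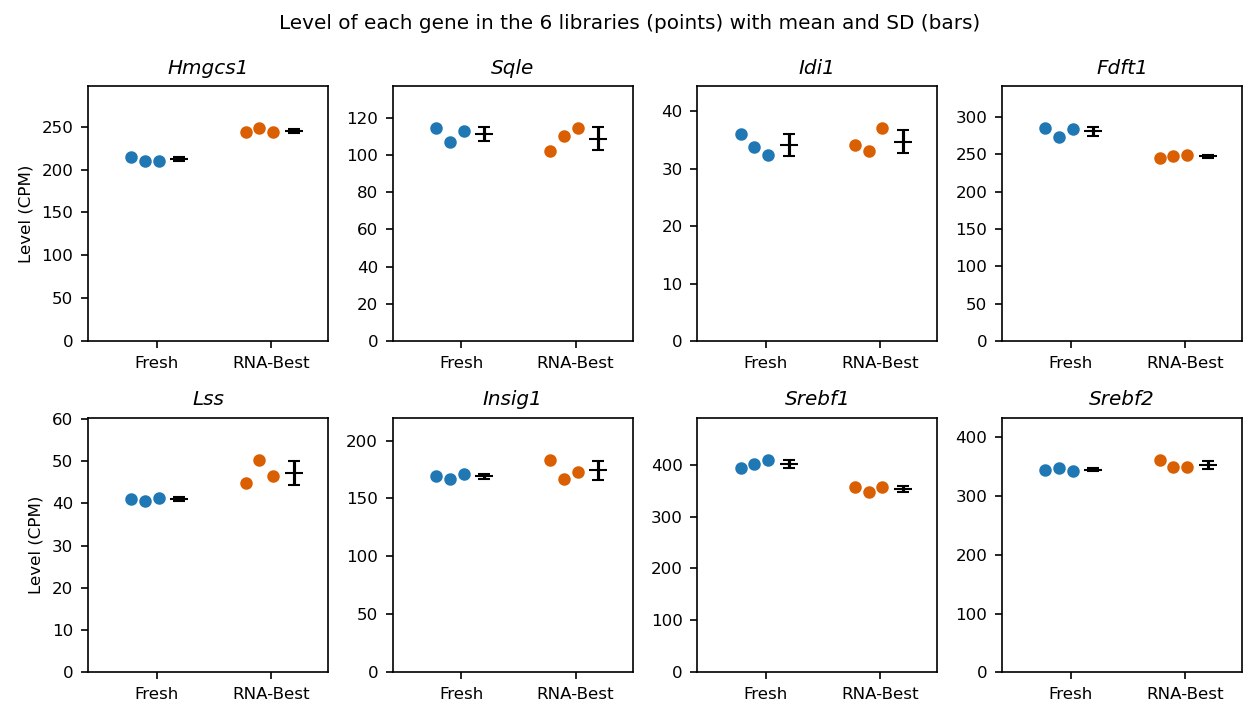
Level of each gene in CPM (counts scaled to the library's total, vertical axis from 0) in the 3 fresh (blue) and 3 RNA-Best (orange) libraries, with the mean and SD of each group as black bars. The groups lie apart in Hmgcs1, Fdft1, Lss and Srebf1, and by a narrow gap in Srebf2, while they overlap in Sqle, Idi1 and Insig1.

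Hmgcs1 encodes the cytosolic HMG-CoA synthase, an early enzyme on the way to mevalonate (ENSMUSG00000093930; GRCm38 chr13:119690379-119708260, plus strand). Levels are given in CPM, the gene's counts scaled to the total of its library. The level of Hmgcs1 was 214.9, 210.6 and 210.7 CPM in the fresh libraries and 243.6, 248.1 and 244.5 CPM in RNA-Best. Every stored library lay above every fresh one, and the spread within each group was small, with means of 212.1 ± 2.45 (SD, n = 3) and 245.4 ± 2.39 CPM (SD, n = 3). The log2 fold change was 0.19 with a standard error of 0.03 (edgeR adjusted p = 1.20e-06), or a rise of 14.4% with a 95% interval from 9.7% to 19.3%. The call was lost when each library's trend with GC content was removed, where the log2 fold change was 0.06 (adjusted p = 0.0659).

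Idi1 encodes isopentenyl diphosphate isomerase, which makes the starter unit of the isoprenoid chain (ENSMUSG00000058258; chr13:8885501-8892451, plus strand). It stood at 36.1, 33.8 and 32.4 CPM in fresh and at 34.2, 33.1 and 37.0 CPM in RNA-Best. The groups overlapped, and the change of 1.36% had an interval from -6.74% to 10.2% (edgeR adjusted p = 0.809). Only 162.5 counts stood behind the value of the shallowest stored library, and the coefficient of variation of the stored group, 5.74%, was no larger than the 6.26% that counting alone gives. In the fresh group it was 5.54%, above the 3.39% from counting. A difference within this interval was not detectable with these libraries.

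Fdft1 encodes squalene synthase, the first enzyme committed to sterols (ENSMUSG00000021273; chr14:63145150-63179578, minus strand). Its level was 284.8, 273.9 and 283.6 CPM in fresh cells and 245.6, 247.7 and 248.9 CPM in RNA-Best. All stored libraries lay below all fresh ones, with means of 280.8 ± 6.0 and 247.4 ± 1.69 CPM (SD, n = 3 each). The log2 fold change was -0.19 with a standard error of 0.03 (edgeR adjusted p = 1.32e-06), and the interval of the percent change ran from -16.3% to -8.85%. The exons of Fdft1 share 774 bases with those of Ctsb, a lysosomal protease gene on the other strand, which fell from 1119 ± 10.6 to 981.6 ± 19.2 CPM (SD, n = 3 each). Whether strand was used in counting is not given in the sources used here, so reads of the shared stretch cannot be told apart. Of the 6 values of Fdft1 4 hold parts of counts, but so do all 6 of Insig1, whose exons overlap no other gene. Parts of counts thus do not mark this overlap by themselves.

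Sqle encodes squalene epoxidase, a rate-limiting enzyme of the pathway (ENSMUSG00000022351; chr15:59315077-59331192, plus strand). Its level was 114.3, 107.2 and 112.8 CPM in fresh cells and 102.4, 110.0 and 114.3 CPM in RNA-Best. The lowest and one of the highest values both came from stored cells, and the groups overlapped. The change of -2.73% had an interval from -8.12% to 2.99% (edgeR adjusted p = 0.432).

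Lss encodes lanosterol synthase, which closes the sterol rings (ENSMUSG00000033105; chr10:76531588-76557138, plus strand). It stood at 41.0, 40.5 and 41.4 CPM in fresh and at 44.8, 50.3 and 46.4 CPM in RNA-Best. The groups did not overlap, and the stored libraries were more spread, at 47.2 ± 2.83 CPM against 41.0 ± 0.466 CPM (SD, n = 3 each). The log2 fold change was 0.18 with a standard error of 0.05 (edgeR adjusted p = 0.00354), or a rise of 13.2% with an interval from 5.35% to 21.5%. This call was lost when all libraries were thinned to the depth of the shallowest (log2 fold change 0.15, adjusted p = 0.124) and when no filter on low counts was used (0.13, adjusted p = 0.0518), with a change of similar size. It was also lost when each library's trend with exonic length was removed, where the log2 fold change was -0.10 (adjusted p = 0.126), and with the length of the longest coding transcript, where it was 0.03 (adjusted p = 0.679).

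Among the regulators, Srebf1 fell and Srebf2 and Insig1 did not pass the threshold. Srebf1 encodes SREBP-1 (ENSMUSG00000020538; chr11:60199089-60222581, minus strand) and had the highest CPM of the 8 genes in the fresh libraries. Its level was 392.5, 401.9 and 408.8 CPM in fresh cells and 357.0, 346.9 and 356.9 CPM in RNA-Best, with every stored library below every fresh one. The means were 401.1 ± 8.18 and 353.6 ± 5.82 CPM (SD, n = 3 each), and the log2 fold change was -0.19 with a standard error of 0.03 (edgeR adjusted p = 7.27e-07). The interval of the percent change ran from -15.9% to -8.82%. Its exons share 109 bases with Rai1, a gene on the other strand that rose from 138.6 to 197.1 CPM, against the direction of Srebf1.

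Srebf2 encodes SREBP-2, the main activator of the synthesis enzymes (ENSMUSG00000022463; chr15:82147181-82205379, plus strand). Its level was 343.5, 347.5 and 342.5 CPM in fresh and 361.1, 348.5 and 349.5 CPM in RNA-Best. The stored values all lay above the fresh ones, but the gap between the nearest values was smaller than the spread within the stored group, and the change of 1.51% had an interval from -2.43% to 5.61% (edgeR adjusted p = 0.546). Insig1, which retains SCAP in the endoplasmic reticulum (ENSMUSG00000045294; chr5:28071363-28078662, plus strand), was at 169.6, 167.0 and 170.9 CPM in fresh and at 183.2, 166.5 and 173.1 CPM in RNA-Best. Of the stored libraries 2 were above and 1 was below all fresh ones, and the change of 2.63% had an interval from -2.07% to 7.56% (edgeR adjusted p = 0.366).

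Non-overlapping groups were found in 5 of the 8 genes, and in 57.5% of all tested genes. The median absolute log2 fold change was 0.19 over all tested genes and 0.27 over those called. Among all tested genes 48.4% had a larger absolute log2 fold change than Hmgcs1, 48.2% than Fdft1, 49.2% than Srebf1 and 52.4% than Lss, so the genes that moved did so by about the median amount. For the genes not called these shares were 89.2% for Sqle, 89.9% for Insig1, 94.2% for Srebf2 and 94.9% for Idi1.

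Since these genes moved in both directions, their levels relative to each other shifted, and such a ratio within a library does not depend on how the library was scaled. Srebf1 over Srebf2 was 1.14, 1.16 and 1.19 in fresh and 0.989, 0.995 and 1.02 in RNA-Best, so the factor gene with the higher CPM was Srebf1 in every fresh library and not in every stored one (two-sided exact permutation test, p = 0.1, which is the lowest value possible with 3 libraries a group). Per kilobase of exons Srebf1 stayed above Srebf2 in every stored library, at 61.6 to 63.4 against 48.5 to 50.3 CPM per kb. Fdft1 over Hmgcs1, a pair picked after its values were seen and so given as a description, was 1.33, 1.30 and 1.35 in fresh and 1.01, 0.998 and 1.02 in RNA-Best. Insig1 over its paralog Insig2 was 3.64, 3.72 and 3.97 in fresh and 4.45, 3.63 and 4.33 in RNA-Best, with overlapping groups (two-sided exact permutation test, p = 0.4). A ratio shows unequal change and does not say which gene of a pair moved.

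Levels of different genes were compared per kilobase of exonic sequence. In fresh cells Srebf1 was highest at 71.2 CPM per kb, then Fdft1 at 66.4, Insig1 at 54.7, Srebf2 at 48.0, Hmgcs1 at 46.2, Sqle at 20.1, Idi1 at 9.72 and Lss at 3.80 CPM per kb, and no neighbours in this order overlapped in their ranges. In RNA-Best the level of Srebf1 was 62.8, of Fdft1 58.5, of Insig1 56.3, of Hmgcs1 53.4 and of Srebf2 49.1 CPM per kb. There the ranges of Fdft1 and Insig1 overlapped, as did those of Insig1 and Hmgcs1. The exons of Lss span 10.8 kb in all and its longest coding transcript 4.67 kb. Per kilobase of that transcript, a measure added after the data had been seen, Lss stood at 8.77 CPM per kb in fresh, still the lowest. With this length Srebf2 at 67.9 CPM per kb stood above Insig1 at 62.7 in fresh, the reverse of their order above. Hmgcs1 went from 61.2 CPM per kb in fresh, where its range overlapped that of Insig1, to 70.8 in RNA-Best, where it overlapped that of Srebf2.

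Fold changes over all genes differed with gene length. The median log2 fold change was -0.22 for genes of up to 1 kb of exons, -0.18 between 1 and 2 kb, -0.10 between 2 and 4 kb, 0.07 between 4 and 8 kb and 0.26 above 8 kb. Idi1 and Insig1 fall between 2 and 4 kb, Lss above 8 kb and the other 5 genes between 4 and 8 kb. Hmgcs1 at 4.59 kb and Fdft1 at 4.23 kb are of similar length and went opposite ways, and the GC content of their longest transcripts was 43.1% and 51.8%. Fdft1 and Srebf1, at 5.63 kb, lay below the median of their length class.

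**Figure D2:**
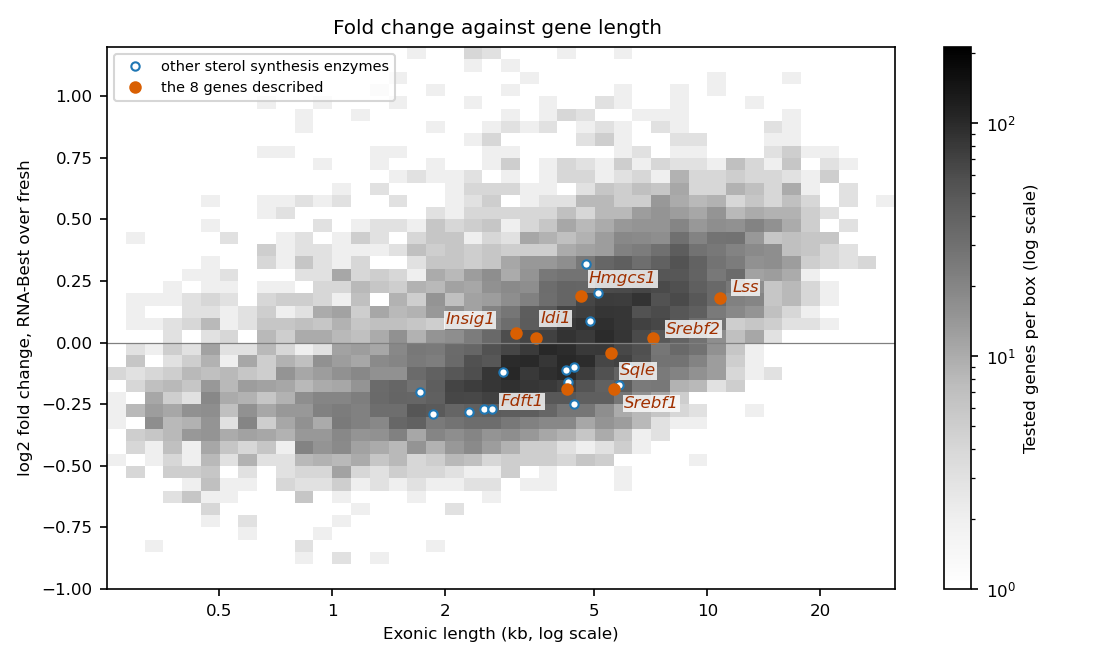
Log2 fold change (RNA-Best over fresh, vertical axis) against exonic length (kb, log scale) for 14386 tested genes as grey boxes shaded by number (log scale), with the 8 genes as orange points and other sterol synthesis enzymes named in the text as open blue points. The cloud rises with length, Lss sits within it at 10.8 kb, and Srebf1 and Fdft1 lie in its lower part, while 303 genes fall outside the axes.

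When each library's trend with exonic length was removed, 40.8% of all genes were called, 15.6% higher and 25.2% lower. Of the 8 genes, Hmgcs1 remained higher at a log2 fold change of 0.16 (edgeR adjusted p = 5.85e-05), and Fdft1 and Srebf1 remained lower at -0.21 and -0.28. Lss no longer passed and changed direction, Srebf2 was now lower at -0.13 (adjusted p = 1.63e-04) and Sqle at -0.12 (adjusted p = 0.0144). Idi1 at 0.04 and Insig1 at 0.08 did not pass. With the length of the longest coding transcript in its place, an alternative added after seeing the data, neither Lss nor Sqle, at -0.04, was called, and Srebf2 at -0.16 was lower.

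Removing the trend with GC content instead gave calls in 48.1% of all genes, 21.9% higher and 26.2% lower. There Hmgcs1 missed the threshold, and Lss at 0.12 (edgeR adjusted p = 0.0404) and Srebf2 at 0.12 (adjusted p = 5.62e-04) were higher. Sqle at -0.10 (adjusted p = 0.0455), Fdft1 at -0.19 and Srebf1 at -0.09 (adjusted p = 0.00567) were lower. Over 18 alternatives in all, Fdft1 and Srebf1 were lower in 18, Hmgcs1 was higher in 17, Lss in 13, and Idi1 and Insig1 were called in none. Sqle was lower in 3, and Srebf2 was lower in 3 and higher in 1. What part length and GC content play in these differences was not tested.

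**Figure D3:**
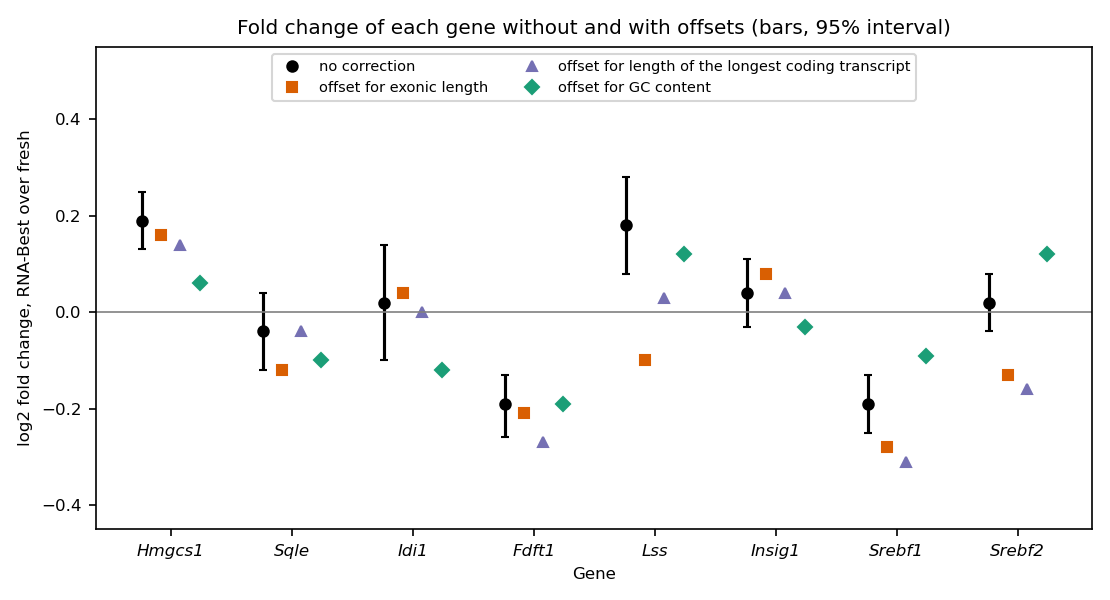
Log2 fold change (RNA-Best over fresh, vertical axis) of each gene without correction (black, with the 95% interval) and after removing each library's trend with exonic length (orange), with the length of the longest coding transcript (purple) or with GC content (green). Fdft1 and Srebf1 stay below 0 in all 4 and Hmgcs1 above it, whereas Lss and Srebf2 cross 0 with a length correction, Insig1 with that for GC content and Idi1 with that for GC content and, narrowly, for the longest coding transcript.

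The 8 genes stand within the wider pathway, for which 22 enzymes of sterol synthesis were listed and all were tested. Of these 5 rose, 11 fell and 6 did not pass, or 72.7% called beside 50.8% of all tested genes, with a median log2 fold change of -0.10 beside -0.01 over all tested genes. Among the enzymes that rose were Hmgcs1, Lss, the sterol reductase Lbr and the sterol ketone reductase Hsd17b7 at 0.20. Lbr rose most of the listed enzymes, at 0.32, from 76.7 ± 3.60 to 96.4 ± 10.9 CPM (SD, n = 3 each).

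The thiolase Acat2 at -0.27, Mvk at -0.27, Pmvk at -0.20 and Mvd at -0.29 fell, the last 3 being the kinases and decarboxylase that turn mevalonate into isopentenyl diphosphate. After the sterol rings are closed, Tm7sf2 at -0.25, Msmo1 at -0.10, Nsdhl at -0.12, the scaffold protein gene Erg28 at -0.16, Ebp at -0.28 and Dhcr7 at -0.17 fell as well. Of these, Msmo1 (edgeR adjusted p = 0.0408) was lower in 11 of the 18 alternatives and Nsdhl (adjusted p = 0.0205), whose groups overlapped, in 10. The groups of Mvd overlapped as well, and its call was lost after thinning (adjusted p = 0.0857) and without RNA-Best replicate 3 (adjusted p = 0.0559). Dhcr7, which makes the last step to cholesterol, went from 133.3 ± 0.825 to 118.0 ± 6.53 CPM (SD, n = 3 each). Among those that did not pass were, besides Idi1 and Sqle, Fdps at -0.11, Cyp51 at -0.10 and Sc5d at 0.09, of which Fdps was read from only 6.73 CPM in fresh cells. The median exonic length was 5.10 kb for the enzymes that rose and 2.85 kb for those that fell. With the length offset 2 enzymes were higher, Hmgcs1 and Lbr, and 11 of the 22 lower, with a median of -0.13, beside 15.6% higher and 25.2% lower of all genes. Pmvk and Nsdhl were then no longer called, and Sqle and Cyp51 were lower. With the length of the longest coding transcript 2 were higher and 8 lower, with a median of -0.06, and 5379 of the 14736 tested genes were called. Among those not called there were Tm7sf2 at -0.14 (edgeR adjusted p = 0.0926) and Erg28 at -0.02 (adjusted p = 0.862). With the GC offset Pmvk at -0.11 (adjusted p = 0.0805) and Hsd17b7 at 0.08 (adjusted p = 0.274) were among those not called. The summed level of the 22 enzymes was 1885 ± 24.4 CPM in fresh and 1835 ± 39.9 CPM in RNA-Best (SD, n = 3 each), and the groups overlapped.

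**Figure D4:**
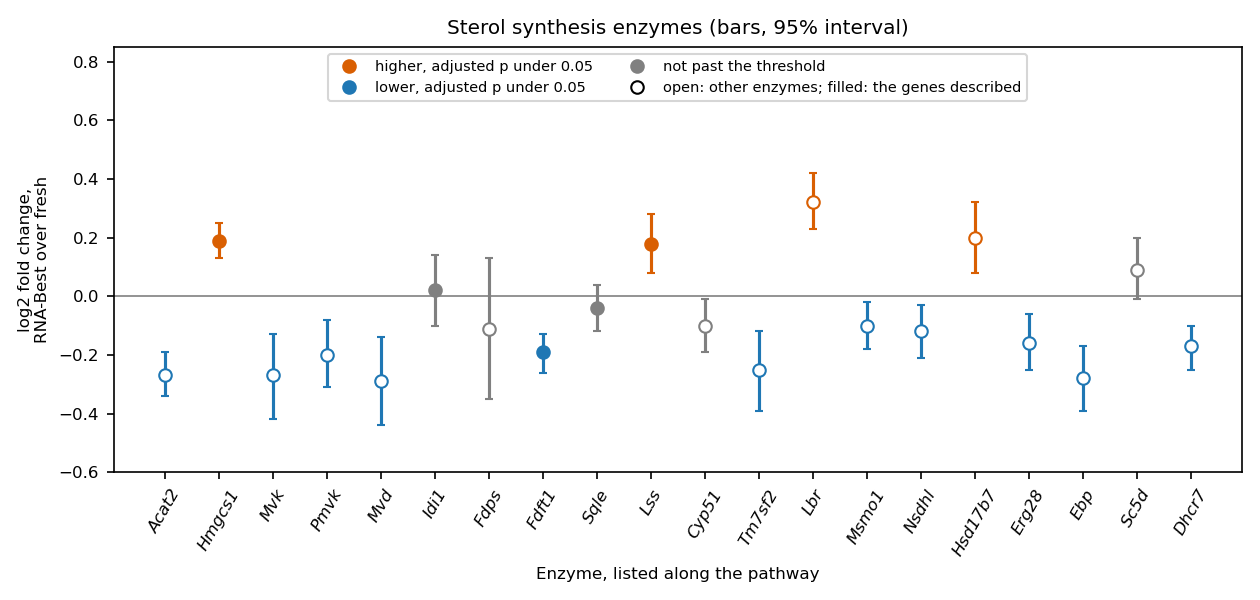
Log2 fold change (RNA-Best over fresh, vertical axis, with 95% intervals) of 20 of the sterol synthesis enzymes, listed along the pathway from acetyl-CoA to cholesterol, in orange where higher, blue where lower and grey where the threshold was not passed, with filled points for Hmgcs1, Idi1, Fdft1, Sqle and Lss. Genes that rose and genes that fell are interspersed along the pathway, from Acat2 at -0.27 and Hmgcs1 at 0.19 to Dhcr7 at -0.17.

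Of 15 genes for the processing of SREBPs and sterol sensing, Srebf1, Srebf2 and Insig1 among them, 4 rose, 4 fell and 7 did not pass, with a median of 0.02. The share called, 53.3%, is near the 50.8% of all tested genes. Mbtps2, the gene of the S2P protease, rose from 25.5 ± 2.67 to 33.2 ± 0.851 CPM (SD, n = 3 each; log2 fold change 0.33), and Fbxw7, which marks nuclear SREBPs for degradation, rose at 0.24 and was called in 12 of the 18 alternatives, being lost with the GC offset (adjusted p = 0.078), after thinning (adjusted p = 0.194) and without RNA-Best replicate 3 (adjusted p = 0.173) among others. Ube2g2, a ubiquitin-conjugating enzyme of endoplasmic reticulum degradation, fell from 26.6 ± 0.611 to 19.3 ± 1.77 CPM (SD, n = 3 each; log2 fold change -0.45, edgeR adjusted p = 9.31e-07). Scap itself was at 96.9 ± 2.17 and 91.5 ± 5.67 CPM (SD, n = 3 each) and did not pass (edgeR adjusted p = 0.0759). It was lower in 6 of the 18 alternatives, among them the length offset at -0.25 (adjusted p = 4.92e-06). With the longest coding transcript Scap was lower at -0.20 (adjusted p = 1.25e-04). Insig2 fell at -0.13 (edgeR adjusted p = 0.0357), but its groups overlapped and it was called in only 8 of the 18 alternatives, neither length offset among them. With the length offset none of these genes was higher and 7 were lower, where 15.6% of all genes were higher and 25.2% lower, and Mbtps2 at 0.08 and Fbxw7 at 0.10 were no longer called.

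Of 20 tested genes of sterol uptake, transport and storage, 7 rose, 3 fell and 10 did not pass, with a median of 0.05. The 10 called of 20 are near the 50.8% of all tested genes. The lipoprotein receptors Lrp8 at 0.32 and Vldlr at 0.28 and the sterol carrier Gramd1b at 0.37 rose, and the late endosomal sterol carrier Stard3 fell at -0.25. With the length offset Lrp8 at 0.05 (edgeR adjusted p = 0.225) and Vldlr at 0.02 (adjusted p = 0.644) were no longer called, and Gramd1b stood at 0.11. With the longest coding transcript Gramd1b, at 0.05 (adjusted p = 0.207), was not called either. The summed level of the listed genes was 2097 to 2122 CPM in fresh and 2282 to 2340 CPM in RNA-Best. With the exonic length offset 4 of the 20 genes were higher and 8 lower, beside 15.6% and 25.2% of all genes.

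Among 15 fatty acid synthesis genes that SREBP-1 drives, 8 rose, 2 fell and 5 did not pass, or 66.7% called beside 50.8% of all tested genes. The median was 0.12, and their summed level was 4664 to 4780 CPM in fresh and 5158 to 5293 CPM in RNA-Best. Gpam, which starts glycerolipid synthesis, rose from 30.5 ± 2.25 to 51.5 ± 1.84 CPM (SD, n = 3 each; log2 fold change 0.71, edgeR adjusted p = 4.95e-13), and Lpin1, a phosphatidate phosphatase, rose at 0.36. Fasn, the fatty acid synthase, rose from 609.7 ± 9.24 to 704.4 ± 12.2 CPM (SD, n = 3 each) and Acaca, which makes its substrate, at 0.21, but with the length offset both turned lower, at -0.09 and -0.20. With that offset 4 of the 15 genes were higher and 3 lower, where 15.6% of all genes were higher and 25.2% lower. With the GC offset Fasn at 0.29 and Acaca at 0.16 were both higher. There 7 of the 15 genes were higher and 2 lower, where 21.9% of all genes were higher and 26.2% lower. With the length of the longest coding transcript 3 were higher and 4 lower, with a median of -0.04, and 5379 of the 14736 tested genes were called.

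**Figure D5:**
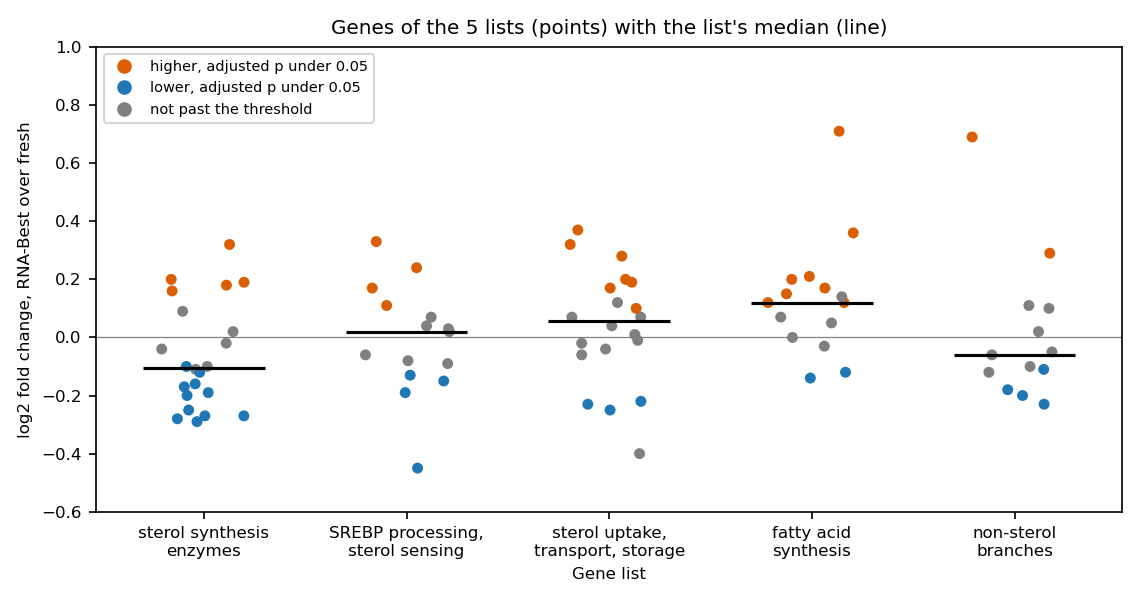
Log2 fold change (RNA-Best over fresh, vertical axis) of the tested genes of 5 lists, 1 point a gene, in orange where higher, blue where lower and grey where the threshold was not passed, with the median of each list as a black line. The medians run from -0.10 for the sterol synthesis enzymes to 0.12 for the fatty acid synthesis genes, and each list holds genes of both directions.

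The genes with the nearest profile were sought among 10190 genes by the root mean square difference of centred log2 levels over the 6 libraries. The nearest to Hmgcs1 were Add3 at 0.00821, Tnks2 at 0.0108 and Rad21 at 0.0108. To Srebf1 they were Atf4 at 0.0106, Bub3 at 0.0111 and Nxt1 at 0.0120, and to Srebf2 Fam102a at 0.0057, Vav2 at 0.0113 and Copg1 at 0.0117. Within a wider distance, 830, 1161 and 1039 genes lay within 0.05 of Hmgcs1, Srebf1 and Srebf2.

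The cells carried most markers of gonadotropes. Of 8 such genes 7 exceeded 1 CPM in every library, while Fshb was at 0 in all. Cga, the common hormone subunit, was at 1813 CPM in fresh and 1426 CPM in RNA-Best, Lhb at 26.9 and 28.3 CPM and Gnrhr, the GnRH receptor, at 119 and 163.8 CPM. The summed gonadotrope markers were at 3607 to 3644 CPM in fresh and 3075 to 3153 CPM in RNA-Best. In absolute CPM Cga moved most, though not relative to its level, while Gnrhr and Foxl2, the latter at 23.8 and 30.7 CPM, moved the other way. None of 6 markers of other hormone cells and none of 5 fibroblast markers exceeded 1 CPM in every library, and Prl, Pou1f1, Col3a1, Dcn and Lum were at 0 in all. Among immune markers 1 of 4 did so and Ptprc was at 0. All 3 of 3 endothelial markers did so, at 190.9 to 193.1 CPM summed in fresh and 196.4 to 208.8 CPM in RNA-Best, as did 2 of 3 epithelial and folliculostellate markers, at 301.2 to 312.1 and 276.6 to 293.0 CPM. The summed markers of other hormone cells were at 0.789 to 1.11 CPM in fresh and 1.42 to 2.28 CPM in RNA-Best, mostly from Tshb at 0.909 and 1.64 CPM. The part of these shifts in the values of the 8 genes was not tested.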

How the data were processed

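Bulk mRNA libraries of GnRH-treated LβT2 cells were used, 3 fresh and 3 RNA-Best. Per the submitters' processing notes and the methods, single reads were aligned to mm10 (GRCm38) with STAR 2.5.1b and counted by featureCounts 1.5.0-p1. The authors deposited estimated counts without scaling, of which 9.36% to 16.3% per library were not whole (tolerance 0.001). The setting that divided reads is not given in the sources used here.

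Counts were rounded and tested in R 4.3.3 with edgeR 4.0.16 (quasi-likelihood, TMM, filterByExpr with a minimum count of 10, Benjamini-Hochberg). CPM used the column totals. Limma-voom (limma 3.58.1), the study's method but here without its threshold on the fold change, which none of the 8 genes reached, DESeq2 1.42.0, filters, offsets (loess, span 0.5), thinning, a replicate block and leaving out single libraries were alternatives. Lengths, GC content and positions came from GENCODE M21, later than the authors' release, and matched 46574 genes. Spike-ins in the table numbered 0. A count of 0 allows up to 3 counts, or 0.0632 to 0.611 CPM. The scripts were tested on simulated data.

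Members and gene lists were chosen with earlier results of these data known. Named are the 8 genes, the sterol synthesis enzymes called or not, up to 4 called genes with the largest absolute log2 fold change from each other list, Cga, Lhb, Fshb and Gnrhr, and the 3 nearest profiles of Hmgcs1, Srebf1 and Srebf2. Insig2, Scap, Ctsb and Rai1 were named after their values were seen. Of the 16 listed genes for SREBP processing 15 were found under the names searched. Some genes of the lists are counted but not reported here by name.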

Additional observations from a re-analysis of the deposited data

How the results depend on the processing

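Of 648 values of 36 named genes under alternatives, 561 kept their direction and side of the threshold, 60 were no longer called, 4 became called in the same direction and 23 changed direction. Calls over all genes numbered 7479, with 7459 by limma-voom, 5955 by DESeq2, 6007 with the length offset, 5301 after thinning and 6357 to 7273 without single libraries. The length offset gave 2292 higher and 3715 lower, in place of 3828 and 3651. Of the 8 genes, 1 was higher without a filter, with either length offset, with the replicate block and length offset, and after thinning. With the length offset, alone or with the block, 4 were lower. The offset for the longest coding transcript called 10 sterol synthesis enzymes and not 16. Thinning called 5 genes of SREBP processing and not 8, and 3 of the non-sterol branches and not 6.

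Direction changed in these of the 8 genes and the other called genes named in the text, with log2 fold changes. Called genes of the lists that are not named are left out here. Without a filter Idi1 was at -0.03, Insig1 at -0.0095 and Srebf2 at -0.03. With the length offset, and likewise with the block added unless given, Lss was at -0.10 (with the block -0.11), Srebf2 at -0.13, Acaca at -0.20 and Fasn at -0.09. With the longest coding transcript Idi1 was at -0.0042, Srebf2 at -0.16, Vldlr at -0.06, Acaca at -0.19 and Fasn at -0.22. With the GC offset Idi1 was at -0.12 and Insig1 at -0.03, and after thinning Idi1 was at -0.02. Without single libraries Idi1 ranged from -0.04 (RNA-Best replicate 3 left out) to 0.06 (fresh replicate 1), with -0.0014 and -0.00059 without fresh replicates 2 and 3. Sqle ranged from -0.09 (RNA-Best replicate 3) to 0.0085 (RNA-Best replicate 1), with adjusted p above the threshold in each case. Of named genes not called, Sc5d was at -0.06 and Fdps at 0.01 with the longest coding transcript, and Sc5d at -0.04 and Scap at 0.02 with the GC offset. The cause was not tested.

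Same-numbered libraries did not deviate together (correlations -0.00844, 0.0121 and -0.0077), so the numbers were not taken as pairs, and the replicate block gave 7472 calls over all genes and the same 4 calls among the 8 genes. Depth limits Idi1 and Lss most.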

Other observations

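The mevalonate pathway also feeds branches that end in prenylated proteins, dolichol and ubiquinone. Of 13 listed genes of these branches 2 rose, 4 fell and 7 did not pass, or 46.2% called beside 50.8% of all tested genes, with a median log2 fold change of -0.06 and a summed level of 414.4 ± 3.10 CPM in fresh and 406.4 ± 5.32 CPM in RNA-Best (SD, n = 3 each). Pggt1b, a subunit of an enzyme that prenylates small GTPases, rose from 13.2 ± 0.759 to 21.9 ± 1.11 CPM (SD, n = 3 each; log2 fold change 0.69, edgeR adjusted p = 1.37e-09). Ggps1, which makes geranylgeranyl diphosphate, rose at 0.29. The farnesyltransferase subunit Fntb fell at -0.20 and the dolichol enzyme Srd5a3 at -0.23. With the GC offset Ggps1 at 0.12 (edgeR adjusted p = 0.119) and Fntb at -0.14 (adjusted p = 0.0968) were no longer called. Fntb was called in 13 of the 18 alternatives and Ggps1 in 16. With the length offset the counts were again 2 higher and 4 lower, where 15.6% of all genes were higher and 25.2% lower.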
